A study of Mus musculus with 30 samples.

Results

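The nuclear genes of mitochondrial oxidative phosphorylation were examined in N1E115 mouse neuroblastoma cells held at 4% or 20% O2. They were chosen by symbol: protein-coding genes of the nuclear chromosomes whose names start with Nduf, Uqcr or Atp5, the Cox4 to Cox8 genes with any suffix, and Sdha, Sdhb, Sdhc and Sdhd. The rule found 96 of the 21887 protein-coding genes in the mm10 RefSeq table. They comprised 39 genes for complex I subunits, 8 for complex I assembly factors, 4 for complex II, 8 for complex III, 20 for complex IV and 17 for complex V. Ndufa4, a subunit of complex IV despite its name, and its paralog Ndufa4l2 were counted with complex IV. With a median length of 7.23 kb they were short genes, against 17.17 kb over all protein-coding genes.

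The respiratory chain passes electrons from NADH through complex I, or from succinate through complex II, to ubiquinone, then through complex III and cytochrome c to complex IV, which reduces oxygen to water. Complexes I, III and IV pump protons as they do so, and complex V, the ATP synthase, uses the resulting gradient to make ATP. Most subunits are encoded in the nucleus, and several subunits of complex IV have isoforms that replace the common form in muscle, testis, lung or at low oxygen. NRF1, GABPA (also called NRF2, an ETS family factor) and YY1 are transcription factors known to act at many promoters of these genes.

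Chromatin immunoprecipitation and sequencing (ChIP-seq) had been done in NOS1+ N1E115 cells, a line from a mouse neuroblastoma whose labels give brain as the tissue and neuroblast or neuroblastoma as the cell type. The cells had spent 3 days at 4% O2, or 3 days at 20% O2, at ambient barometric pressure, with 5% CO2 given for the later samples. All groups were this single NOS1+ line, and the labels name no other allele or agent. The 6 antibodies were against the histone mark H3K9ac, which lies at active promoters, RNA polymerase II (POLR2), its forms phosphorylated at serine 5 (POLR2S5, most abundant early in transcription) and at serine 2 (POLR2S2, elongating polymerase), the insulator protein CTCF, and the cohesin subunit RAD21. Each antibody had 2 libraries at 4% O2 and 2 at 20% O2, 24 in all. The input libraries were not analysed here. No source says that the 2 libraries of a level came from separate cultures, so p-values speak only of how these libraries vary, and that variation may be technical. Replicates 1 and 2 were sequenced on different flow cells, per the file headers, and are called rounds 1 and 2. Values are given for replicate 1 and then replicate 2 of each O2 level. ChIP of a bulk culture cannot tell fewer occupied cells from lower occupancy per cell.

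The lists differed in depth as far as they show it. Reads in called polymerase islands ranged between 2057835 and 16597869 per library, and 20% O2 replicate 1 had the fewest for every polymerase form. For POLR2S2 both 4% O2 libraries held more (10433289 and 16597869) than either 20% O2 library (4874802 and 9701942). The header of the 20% O2 CTCF replicate 1 list carries a sample code that the labels do not explain. H3K9ac lay at 13 of 15 neuroblast and sympathetic neuron marker genes in all 4 libraries, including Hand2, Th and Dbh, but at neither Nefl nor Nefm. It lay at 2 of 6 endothelial, 1 of 6 macrophage, 1 of 6 fibroblast, 1 of 5 astrocyte, 2 of 6 oligodendrocyte and Schwann cell, and 1 of 6 muscle markers.

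Nearly all of the genes overlapped an active promoter mark, and most overlapped polymerase islands, at both O2 levels. A gene was called in a library when a peak or island overlapped the gene or the 1 kb on either side by at least 1 bp. An island called in this way could also cover neighbouring genes. Far fewer genes had polymerase calls when the centre of the island had to lie inside that window. H3K9ac was called in all 4 libraries at 90 of the 96 genes, against 58.9% of all protein-coding genes, and POLR2S5 also at 90, against 52.7%. POLR2 was called in all 4 at 77 genes, against 42.2% of all genes, and POLR2S2 at 76, against 42.8%. CTCF was called in all 4 libraries at 50 genes, or 52.1%, against 51.6% of all genes, and RAD21 at 27, or 28.1%, against 34.6%. These shares of the oxidative phosphorylation genes were thus far above those of all genes for H3K9ac and polymerase and near them for CTCF. Most of the missing POLR2 and POLR2S2 calls lay in the shallowest list. Without 20% O2 replicate 1, POLR2 was called in the other 3 libraries at 87 genes, against 56.3% of all genes. POLR2S2 was called in them at 88 genes, against 50.4%. Dropping that library moved RAD21 to 38 genes, or 39.6%, against 41.4% of all genes.

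**Figure D1:**
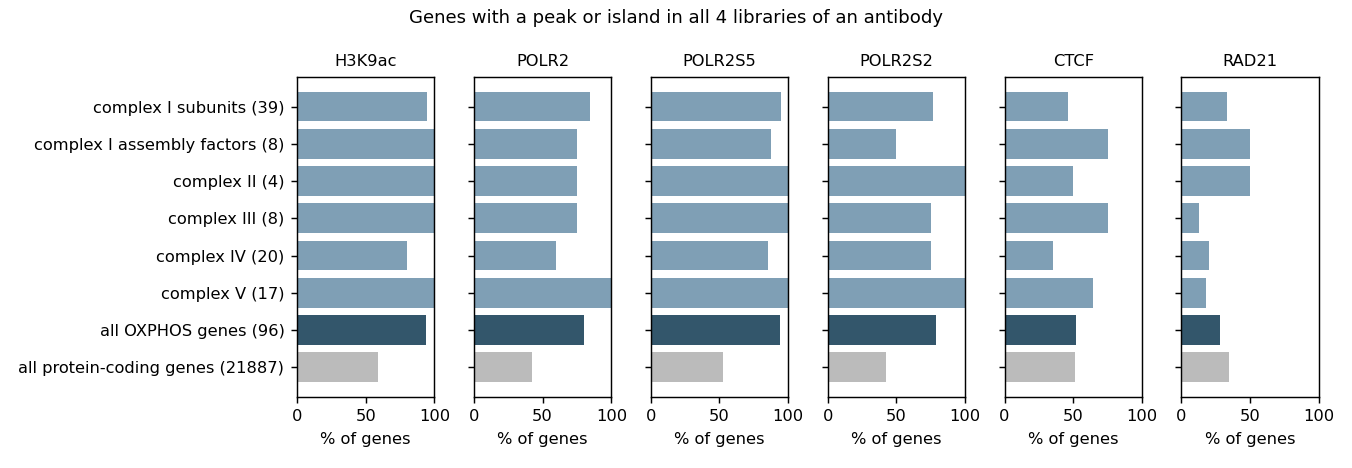
Percent of genes with a peak or island within the gene or 1 kb of it in all 4 libraries of an antibody, for each complex, for all 96 oxidative phosphorylation (OXPHOS) genes and for all 21887 protein-coding genes; the number of genes is in brackets. H3K9ac and the 3 polymerase forms cover most genes of every complex, with 17 of 17 in complex V, except POLR2S2 at the assembly factors (4 of 8), while the CTCF and RAD21 shares vary among complexes and, over the 96 genes, are 52.1% and 28.1%, against 51.6% and 34.6% of all genes.

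Complex V was the most fully covered: H3K9ac and all 3 polymerase forms were called in all 4 libraries at 17 of its 17 genes. Complex I subunits had H3K9ac in all 4 libraries at 37 of 39 genes, POLR2 at 33, POLR2S5 at 37 and POLR2S2 at 30. Complex III had H3K9ac and POLR2S5 at 8 of 8 genes and POLR2 and POLR2S2 at 6. All 4 complex II genes had H3K9ac, POLR2S5 and POLR2S2, and 3 had POLR2. The 8 assembly factors, which help build complex I without staying in it, had POLR2S2 in all 4 libraries at 4 genes. Complex IV had H3K9ac at 16 of 20 genes and POLR2 at 12. Over all 96 genes, 66 had all 3 polymerase forms in all 4 libraries, 20 had 2 forms, 5 had 1 and 5 had none.

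Polymerase islands covered far more of these genes than of genes at large. The median share of a gene's length under POLR2S2 islands was the full length in both 4% O2 libraries, against 76.4% and 97.5% in the 20% O2 libraries. POLR2 islands covered a median of 78.1% and 83.9% at 4% O2, against 21.5% and 70.2% at 20% O2, where the lowest value is the shallow library. Over all protein-coding genes the POLR2 medians were 4.1% and 6.4% at 4% O2, against 0.0% and 6.5% at 20% O2. For mitochondrial ribosomal protein genes they were 66.9% and 90.7% at 4% O2, against 39.4% and 72.2% at 20% O2. Such coverage was thus not particular to respiratory genes. The POLR2 regions representing the genes had a median length of 19.2 kb, beside a median gene length of 7.23 kb, and most held other genes. Ranked by POLR2S2 reads per kb of island among the regions called in all 4 libraries, complex V genes had a median percentile of 74.3, complex II genes 65.2, assembly factors 63.1, complex IV genes 58.9 and complex I subunits 45.7, with complex III between complexes IV and I. For POLR2 the order was another, with 48.0 for complex I subunits, 41.2 for complex II, 37.7 for assembly factors, 35.9 for complex III, 34.5 for complex V and 26.0 for complex IV.

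The genes without H3K9ac were 4 isoforms of restricted tissues and 2 near-identical gene copies. Cox6a2, the heart and muscle isoform of COX6A, and Cox8c, a testis isoform, had no H3K9ac and no polymerase island in any library. Cox6b2, the testis isoform of COX6B, and Cox8b, a muscle isoform, also lacked H3K9ac in all 4 libraries. Both lay under POLR2S5 and POLR2S2 islands in all 4 libraries, but those islands also covered neighbours, Kmt5c and Fam71e2 for Cox6b2 and Psmd13 and Sirt3 for Cox8b. Cox6b2 had a POLR2 island in 2 libraries and Cox8b in none. Ndufb4b and Ndufb4c had no H3K9ac and no polymerase call in any library. Both closely resemble Ndufb4, a membrane arm subunit, so reads of these copies could be placed at or withheld from any of them and their absence is uncertain.

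Of the 8 isoforms of restricted tissues, 4 had H3K9ac in all 4 libraries: Cox4i2, Cox7a1, Cox7b2 and Ndufa4l2. Among the other 88 genes the number was 86. The common counterparts Cox4i1, Cox6a1, Cox6b1, Cox7a2, Cox7b, Cox8a and Ndufa4 had H3K9ac in all 4. Cox7b2, a testis isoform, had H3K9ac and POLR2 in all 4 libraries and POLR2S5 in 3, but POLR2S2 in none, and POLR2 islands covered 1.0% to 2.1% of its length. Cox7a1, the heart and muscle isoform of COX7A, and Ndufa4l2, a paralog of Ndufa4 known as a target of the hypoxia-inducible factor, were under islands of all 3 polymerase forms over their full length in every library. Those islands were longer than the genes and could also cover neighbours.

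Most genes started within 1 kb of an H3K9ac peak. RefSeq promoters were found for 78 of the 96 genes, and 75 of these had H3K9ac within 1 kb of the start in all 4 libraries, or 96.2%, against 52.4% of 17492 genes with a promoter in the same table. CTCF lay within 1 kb of the start in all 4 libraries at 29 of the 78, or 37.2%, against 22.2%, and RAD21 at 12, or 15.4%, against 9.34%. A start on the opposite strand lay within 1 kb for 24 of the 78, or 30.8%, against 9.61% of all genes and 36.2% of the mitochondrial ribosomal protein genes. Atp5j, coupling factor 6 of the ATP synthase stalk, starts 148 bp from Gabpa, which encodes the DNA-binding subunit of the factor named above. Sdhd lies 52 bp from Timm8b, Ndufs3 lies 19 bp from Kbtbd4, and Ndufb5 lies 308 bp from Mrpl47. Any signal at these starts belongs to both genes.

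Short matches to 4 factors' motifs were more frequent in these promoters than in all promoters. Each promoter was read over 250 bases before the start and 50 after it, on both strands, and the motifs searched were the NRF1 core GCGCATGC, the ETS core CCGGAAG bound by GABPA, the YY1 core AAGATGGC, the GC box GGGCGG, the hypoxia response core ACGTG and a CTCF core with unspecified bases inside. The NRF1 core was in 12 of 78 promoters, or 15.4%, against 3.94% of 17492. An ETS core was in 19, or 24.4%, against 12.9%, and the YY1 core in 11, or 14.1%, against 3.57%. The hypoxia response core was in 19, or 24.4%, against 23.2%, and the GC box in 35, or 44.9%, against 49.2%. The CTCF core was in 5, or 6.41%, against 2.75%. In 69 promoters of mitochondrial ribosomal protein genes the NRF1, ETS and YY1 cores were in 11.6%, 37.7% and 17.4%, and the CTCF core in 2.9%. The first 3 were thus not particular to respiratory genes. Median CpG counts per promoter were 19.5 in the 78 promoters, 21.0 in the ribosomal ones and 13.0 in all. The YY1 core was in 7 of 34 complex I promoters and 0 of 14 complex IV promoters, and the ETS core in 6 of 15 complex V promoters. A match is a run of letters and not a shown binding site.

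The 250 bases before the start are printed for 7 genes whose polymerase, H3K9ac or CTCF values at the 2 O2 levels are described here; these were chosen after their values were seen. Capitals mark a match on either strand to the NRF1 core (Ndufa8 and Sdhb, as GCATGCGC), the ETS core (Ndufb7, Uqcr11 and Atp5j, and as CTTCCGG in Uqcrh) or the YY1 core (Atp5j). Sequences are RefSeq's on GRCm38.p6, the assembly of mm10, written 5′ to 3′ on the strand of the gene. Atp5j has 2 annotated promoters, and the one whose start is nearest that of Gabpa is printed. The bases printed for Atp5j lie within the annotated extent of the gene.
Ndufa10 (chr1:92473759-92474008, minus strand): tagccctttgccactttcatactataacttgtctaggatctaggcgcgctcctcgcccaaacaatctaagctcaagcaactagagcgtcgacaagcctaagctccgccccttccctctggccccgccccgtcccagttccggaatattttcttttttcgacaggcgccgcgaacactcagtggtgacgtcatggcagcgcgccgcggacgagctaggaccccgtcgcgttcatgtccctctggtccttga
Ndufa8 (chr2:36049339-36049588, minus strand): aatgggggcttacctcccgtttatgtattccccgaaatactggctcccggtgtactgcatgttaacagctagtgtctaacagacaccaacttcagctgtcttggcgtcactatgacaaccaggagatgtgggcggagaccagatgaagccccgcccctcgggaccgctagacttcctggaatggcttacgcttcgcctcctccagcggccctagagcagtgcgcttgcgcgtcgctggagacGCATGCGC
Ndufb7 (chr8:83566508-83566757, plus strand): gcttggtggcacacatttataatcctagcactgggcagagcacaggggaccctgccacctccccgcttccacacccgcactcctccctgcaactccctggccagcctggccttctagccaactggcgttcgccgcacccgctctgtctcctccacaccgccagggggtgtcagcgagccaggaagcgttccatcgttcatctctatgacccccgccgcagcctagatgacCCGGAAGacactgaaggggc
Sdhb (chr4:140961021-140961270, plus strand): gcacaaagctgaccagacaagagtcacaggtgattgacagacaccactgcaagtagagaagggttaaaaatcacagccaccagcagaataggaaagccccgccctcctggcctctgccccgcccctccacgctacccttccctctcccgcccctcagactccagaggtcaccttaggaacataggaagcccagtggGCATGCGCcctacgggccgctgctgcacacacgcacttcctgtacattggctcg
Uqcrh (chr4:116075071-116075320, minus strand): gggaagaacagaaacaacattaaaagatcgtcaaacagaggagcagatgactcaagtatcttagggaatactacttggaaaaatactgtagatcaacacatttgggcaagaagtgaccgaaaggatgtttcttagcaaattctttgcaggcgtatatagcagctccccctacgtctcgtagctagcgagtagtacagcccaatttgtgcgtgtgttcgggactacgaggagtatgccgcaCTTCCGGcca
Uqcr11 (chr10:80406822-80407071, minus strand): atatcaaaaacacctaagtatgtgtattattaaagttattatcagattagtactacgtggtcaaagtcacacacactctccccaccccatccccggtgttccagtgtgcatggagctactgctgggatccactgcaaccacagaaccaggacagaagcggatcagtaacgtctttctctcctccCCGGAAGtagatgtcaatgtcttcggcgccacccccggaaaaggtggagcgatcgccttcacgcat
Atp5j (chr16:84834977-84835226, minus strand): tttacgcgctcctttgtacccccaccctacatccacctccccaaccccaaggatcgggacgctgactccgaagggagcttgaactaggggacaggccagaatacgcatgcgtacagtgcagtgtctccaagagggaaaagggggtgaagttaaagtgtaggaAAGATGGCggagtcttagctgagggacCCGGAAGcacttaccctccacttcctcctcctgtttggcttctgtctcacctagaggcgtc
Within the printed bases, Ndufa10 has none of the marked motifs, and Atp5j has both a YY1 and an ETS core. The motif counts above also read bases after the start, which are not printed. In that longer window Sdhb had an ETS core as well as its NRF1 core. Uqcr11 had an NRF1 core there as well as its ETS core, and Ndufa10 again had none of the marked motifs.

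No region of these genes passed the test for a difference in polymerase reads between 4% and 20% O2. Islands of the 4 libraries were merged into regions, reads were summed per region, and each gene was represented by its region with the most reads. With edgeR's quasi-likelihood test, 0 of 78 genes passed for POLR2, 0 of 89 for POLR2S5 and 0 of 81 for POLR2S2, with 0.0% of all 7811, 9933 and 5936 regions passing at an adjusted p of 0.05. At an unadjusted p under 0.05 there were 174, 288 and 349 regions in the genome, among them those of Ndufa10 for POLR2 and Atp5j for POLR2S2. DESeq2 called 1, 19 and 53 regions, none of them representing an oxidative phosphorylation gene. With the sequencing round as a block, edgeR called 2, 3 and 11 regions (0.0256%, 0.0302% and 0.185%), again none of these genes, and the smallest adjusted p among them was 0.202 (Ndufa13), 0.297 (Ndufa4l2) and 0.163 (Ndufa4l2). Without 20% O2 replicate 2, which leaves the shallow library alone at that level, edgeR called 195 POLR2 regions, among them those of Ndufc1, Uqcrq and Cox7a1, and 50 POLR2S5 regions, none of these genes.

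As a group, the genes had polymerase ratios close to those of all genes. The median log2 ratio of 4% to 20% O2 was 0.04 for POLR2, 0.00 for POLR2S5 and 0.05 for POLR2S2, beside 0.03, 0.01 and 0.03 over all genes with a region. The ratios ran between -0.99 and 0.91 for POLR2, between -0.84 and 0.75 for POLR2S5 and between -1.19 and 1.14 for POLR2S2. Both 4% O2 libraries exceeded both 20% O2 libraries for 19 of 78 genes in POLR2, against 18.5% of all genes, for 12 of 89 in POLR2S5, against 16.4%, and for 15 of 81 in POLR2S2, against 20.7%. They lay below both for 11 genes in POLR2, 12 in POLR2S5 and 7 in POLR2S2, where all genes had 13.3%, 13.5% and 15.2%. In both rounds 29 were higher and 23 lower in POLR2, against 34.9% and 26.5% of all genes, 23 and 23 in POLR2S5, against 31.0% and 27.2%, and 30 and 18 in POLR2S2, against 33.9% and 27.6%. Most of these counts are near the background shares. In the values that follow, reads are given as CPM, island reads scaled by TMM to the total in shared regions. The standard error given for a log2 ratio is its size divided by the square root of edgeR's quasi-likelihood F statistic, with 2 libraries per level.

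**Figure D2:**
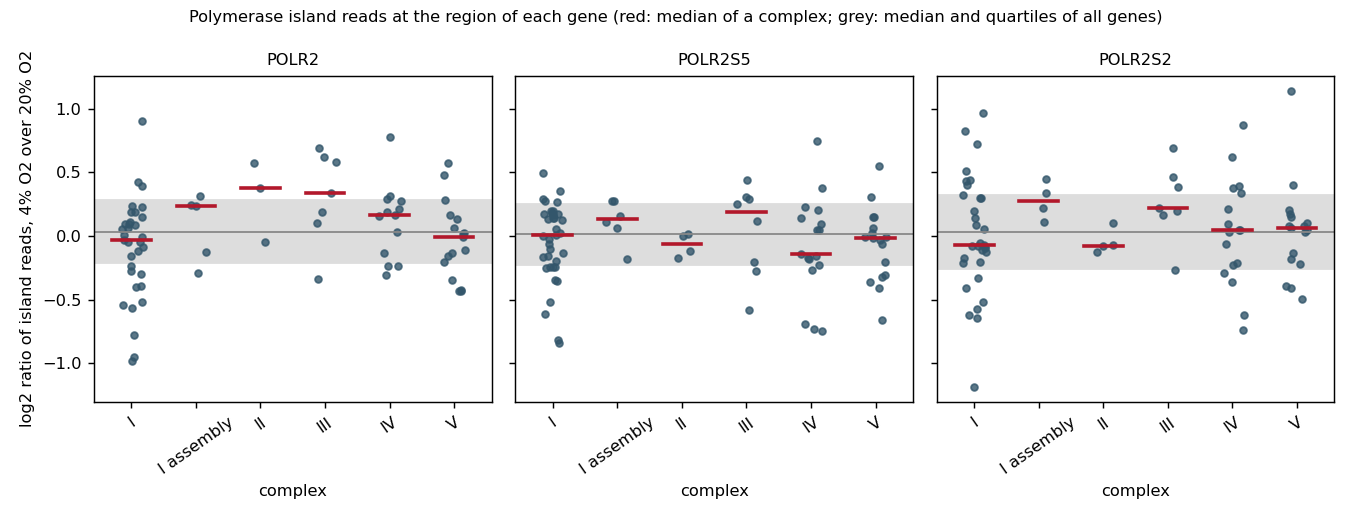
Log2 ratio of island reads, 4% O2 over 20% O2, at the region representing each gene, by complex and polymerase form; each point is a gene, the red line is the median of the complex, and the grey line and band are the median and quartiles of all genes. Medians of the complexes lie between -0.14 and 0.38, and most points fall within or near the band of all genes.

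Complex III and the complex I assembly factors had median ratios above 0 in all 3 forms. For the assembly factors the medians were 0.24 for POLR2 (5 genes), 0.13 for POLR2S5 (6 genes) and 0.28 for POLR2S2 (4 genes). The complex III median log2 ratio was 0.34 for POLR2 (7 genes), 0.18 for POLR2S5 (8 genes) and 0.22 for POLR2S2 (7 genes), and within rounds 1 and 2 it was 0.26 and 0.21 for POLR2, 0.10 and 0.07 for POLR2S5 and 0.21 and 0.23 for POLR2S2. Per kb of island the complex III median lay below that of all genes for POLR2 (-0.88 beside -0.40) and POLR2S5 (-0.25 beside -0.19) and above it for POLR2S2 (-0.16 beside -0.28). For the assembly factors the per kb medians were -0.33, -0.39 and -0.08 beside the same values. Uqcrh, the hinge protein that helps cytochrome c dock, had 135 and 130 CPM of POLR2 at 4% O2, against 67.9 and 95.2 CPM at 20% O2. The groups did not overlap, and the log2 ratio was 0.69 ± 0.32. Its region, chr4:116060401-116095800, also holds Lrrc41 and Rad54l. Uqcrc1, a core protein of the complex, had 193 and 211 CPM of POLR2 at 4% O2, against 79.8 and 182 CPM at 20% O2, a log2 ratio of 0.62 ± 0.44. Here the shallow 20% O2 library held much the lowest value, and the region also holds Col7a1. Uqcr11, a small subunit, had 128 and 406 CPM of POLR2S5 at 4% O2, against 95.9 and 297 CPM at 20% O2. Each 4% O2 value exceeded the 20% O2 value of its own round, but the rounds differed more than the O2 levels did.

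Among complex I subunits the medians were near 0, at -0.03, 0.00 and -0.07 for POLR2, POLR2S5 and POLR2S2, and single genes stood on both sides. Ndufa10, an accessory subunit of the membrane arm, had 36.9 and 49.6 CPM of POLR2 at 4% O2, against 115 and 58.1 CPM at 20% O2, a log2 ratio of -0.99 ± 0.41. For POLR2S5 it had 27.5 and 28.6 CPM at 4% O2, against 58.3 and 40.5 CPM at 20% O2, a log2 ratio of -0.81 ± 0.38. The 4% O2 values were the lower in both forms without overlap, while for POLR2S2 72.2 and 12.1 CPM at 4% O2 overlapped 142 and 49.7 CPM at 20% O2. Its POLR2 region, chr1:92460201-92476400, holds no other gene. Ndufs1, the large iron-sulfur subunit of the NADH-oxidizing module, had 130 and 91.1 CPM of POLR2S5 at 4% O2, against 250 and 146 CPM at 20% O2, a log2 ratio of -0.84 ± 0.39. POLR2S5 islands covered 57.8% and 32.6% of Ndufs1 at 4% O2, against 92.2% and the full length at 20% O2. Ndufb7, an accessory subunit of the membrane arm, had 69.1 and 51.4 CPM of POLR2 at 4% O2, against 125 and 81.8 CPM at 20% O2, a log2 ratio of -0.78 ± 0.35. Apart from POLR2S2 at Ndufa10, these 3 genes had the lower values at 4% O2 in the forms given, and none passed the test. In each form given, 20% O2 replicate 1, the shallow library, held the highest value.

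Other complex I subunits had more reads at 4% O2. Ndufc1, a small membrane subunit, had 303 and 309 CPM of POLR2 at 4% O2, against 82.8 and 242 CPM at 20% O2, a log2 ratio of 0.91 ± 0.51. Ndufv2, an iron-sulfur subunit of the NADH-oxidizing module, had 321 and 260 CPM of POLR2S2 at 4% O2, against 86.0 and 211 CPM at 20% O2, a log2 ratio of 0.97 ± 0.48. Ndufa8, an intermembrane-space subunit whose start lies 135 bp from Morn5, had 66.0 and 56.6 CPM of POLR2S2 at 4% O2, against 14.2 and 54.7 CPM at 20% O2, a log2 ratio of 0.83 ± 0.72. In all 3 the 4% O2 values exceeded both 20% O2 values, and 20% O2 replicate 1, the shallow library, held the lowest value. Ndufs4, an accessory subunit, had the same pattern, with a log2 ratio of 0.72 ± 0.57 in POLR2S2. At the other end of POLR2S2, Ndufs6 had 13.0 and 12.7 CPM at 4% O2, against 17.6 and 21.8 CPM at 20% O2, and Ndufa12 had 65.1 and 54.4 CPM at 4% O2, against 85.4 and 85.6 CPM at 20% O2. Ndufa9 and Ndufa13, accessory subunits, had POLR2 log2 ratios of -0.57 ± 0.40 and -0.95 ± 0.62, with overlapping groups.

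In complex II, 2 of the 3 genes with a POLR2 region had higher values in both 4% O2 libraries, and the O2 levels overlapped for all 4 genes in POLR2S5. Sdhb, the iron-sulfur subunit, had 786 and 827 CPM of POLR2 at 4% O2, against 592 and 491 CPM at 20% O2, a log2 ratio of 0.57 ± 0.29. The groups did not overlap, but in 20% O2 replicate 1 no POLR2 island lay within the gene or 1 kb of it, so the reads there come from elsewhere in the region. That region is 87.8 kb long, holds 4 other genes, and gave log2 ratios of -0.12 ± 0.27 for POLR2S5 and -0.07 ± 0.22 for POLR2S2. Sdha, the flavoprotein that oxidizes succinate, had 181 and 152 CPM of POLR2 at 4% O2, against 109 and 147 CPM at 20% O2, a log2 ratio of 0.38 ± 0.33, and 0.00 ± 0.32 for POLR2S5. Sdhd, a membrane anchor, had 149 and 131 CPM of POLR2 at 4% O2, against 153 and 137 CPM at 20% O2. Sdhc, the other anchor, had 80.8 and 89.9 CPM of POLR2S5 at 4% O2, against 87.2 and 106 CPM at 20% O2. Both anchors overlapped between levels.

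In complex IV, Cox4i2 had more of its length under islands of all 3 polymerase forms, and a higher H3K9ac rank, in both 4% O2 libraries than in either 20% O2 library. Cox4i2 encodes the isoform of subunit 4 that is known to be induced at low oxygen. POLR2 islands covered 20.5% and 45.7% of the gene (chr2:152753916-152765039) at 4% O2, against 0.0% and 15.1% at 20% O2. POLR2S5 islands covered 91.0% and 78.1% at 4% O2, against 29.9% and 16.9% at 20% O2, and POLR2S2 islands 92.0% and the full length at 4% O2, against 27.3% and 0.0% at 20% O2. The groups did not overlap in any form. Counting single forms, coverage was higher in both 4% O2 libraries for 17 of the 96 genes in POLR2, against 13.1% of all genes, for 8 in POLR2S5, against 8.54%, and for 21 in POLR2S2, against 13.8%. It was lower for 2, 3 and 0 genes, against 1.39%, 3.34% and 2.43%. Higher coverage at 4% O2 was thus the commoner order among all genes too. For POLR2S2 both 4% O2 libraries had more island reads than either 20% O2 library. Whether coverage followed depth was not tested. Of the 96 genes, 4 had higher coverage in both 4% O2 libraries in all 3 forms, namely Cox4i2, Cox6b1, Ndufb11 and Ndufs3, against 2.11% of all genes. Cox4i2 alone of the 96 also had a higher H3K9ac rank in both 4% O2 libraries, against 0.366% of all genes. No gene of the 96 was lower in all 3 forms, where all genes had 0.0868%, or 0.00914% with H3K9ac as well. These shares are over all 21887 genes, including genes without islands or H3K9ac, which could be neither higher nor lower. Of those, 12867 had an H3K9ac region in all 4 libraries, against 90 of the 96. The shares thus understate those of occupied genes.

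The POLR2S5 region over the start and body of Cox4i2, chr2:152753001-152762800, held 305 and 380 island reads at 4% O2, against 60 and 66 at 20% O2. On the CPM scale these were 32.7 and 36.8 at 4% O2, against 11.4 and 6.17 at 20% O2, a log2 ratio of 1.996 ± 0.477 with 1.52 within round 1 and 2.56 within round 2. The adjusted p was 0.999 in edgeR without the round as a block and 0.228 with it, so the difference did not pass the test. Islands in this region spanned 9.0 and 9.6 kb at 4% O2, against 2.0 and 2.0 kb at 20% O2. Per kb of island the reads were 3.64 and 3.83 CPM at 4% O2, against 5.7 and 3.08 CPM at 20% O2, which overlap. This region was not the one representing Cox4i2, was chosen after its values were seen, and reaches into the 1 kb flank shared with Bcl2l1. The region representing Cox4i2 was the larger neighbour, chr2:152763401-152834000, which lies mostly over Bcl2l1. It had 313 and 62.5 CPM at 4% O2, against 448 and 176 CPM at 20% O2, a log2 ratio of -0.73. For POLR2S2 a single region spanned both genes and had 365 and 250 CPM at 4% O2, against 196 and 204 CPM at 20% O2, a log2 ratio of 0.62 ± 0.30, and in 20% O2 replicate 2 none of its islands lay within 1 kb of Cox4i2.

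The common isoform Cox4i1 had 163 and 155 CPM of POLR2 at 4% O2, against 191 and 184 CPM at 20% O2, a log2 ratio of -0.23 ± 0.31. Cox7a1 had 181 and 191 CPM of POLR2 at 4% O2, against 53.4 and 162 CPM at 20% O2, a log2 ratio of 0.77 ± 0.52. Its 4% O2 values exceeded both 20% O2 values in all 3 forms, and the region also holds Capns1. Ndufa4l2 had 261 and 697 CPM of POLR2S5 at 4% O2, against 132 and 438 CPM at 20% O2, and 290 and 775 CPM of POLR2S2 at 4% O2, against 138 and 446 CPM at 20% O2. Each 4% O2 value exceeded that of its own round, with log2 ratios of 0.75 ± 0.67 and 0.87 ± 0.69, but the groups overlapped and the POLR2S2 region also holds Lrp1, Nxph4, Shmt2 and Stac3. Cox6c and Cox7c, small structural subunits, had POLR2S5 log2 ratios of -0.70 ± 0.41 and -0.75 ± 0.52, with overlap for Cox7c only. Cox6b1, the common COX6B, was covered by POLR2S2 islands over 86.9% and 91.3% of its length at 4% O2, against 41.9% and 43.1% at 20% O2, while the log2 ratio of POLR2S2 reads in the region representing it was -0.36 ± 0.44.

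In complex V, Atp5j had the highest POLR2S2 ratio of the genes as represented. It had 105 and 125 CPM at 4% O2, against 52.7 and 51.5 CPM at 20% O2, a log2 ratio of 1.14 ± 0.40 with an unadjusted p of 0.0318 and an adjusted p of 0.809 in edgeR. The groups did not overlap, and the region, chr16:84819801-84867200, also holds Gabpa and Jam2. For POLR2S5 Atp5j had 53.9 and 84.5 CPM at 4% O2, against 44.8 and 49.6 CPM at 20% O2, and for POLR2 its log2 ratio was -0.16 ± 0.30. Atp5e, the epsilon subunit of the central stalk, had 111 and 102 CPM of POLR2 at 4% O2, against 177 and 111 CPM at 20% O2. Atp5g2, which encodes the c-ring subunit, had 152 and 105 CPM of POLR2S2 at 4% O2, against 201 and 162 CPM at 20% O2, a log2 ratio of -0.50 ± 0.36. Atp5md, a small membrane subunit, had 138 and 167 CPM of POLR2 at 4% O2, against 108 and 98.3 CPM at 20% O2. The 4% O2 values thus lay below both 20% O2 values for Atp5g2 and above both for Atp5md. The median of the complex was -0.01 for POLR2, -0.02 for POLR2S5 and 0.07 for POLR2S2.

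Of 71 genes with a region in all 3 forms, 9 were higher at 4% O2 in both rounds in every form, against 16.8% of 7839 genes, and 6 were lower, against 9.63%. The 9 were Atp5md, Cox7a1, Ndufa2, Ndufaf3, Ndufc1, Ndufv1, Uqcr11, Uqcrc1 and Uqcrh, and the 6 were Atp5e, Atp5g2, Atp5pb, Ndufa10, Ndufa4 and Ndufs1. Complex III gave 3 of the 9 and complex V gave 3 of the 6. Both counts are below the background shares.

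**Figure D3:**
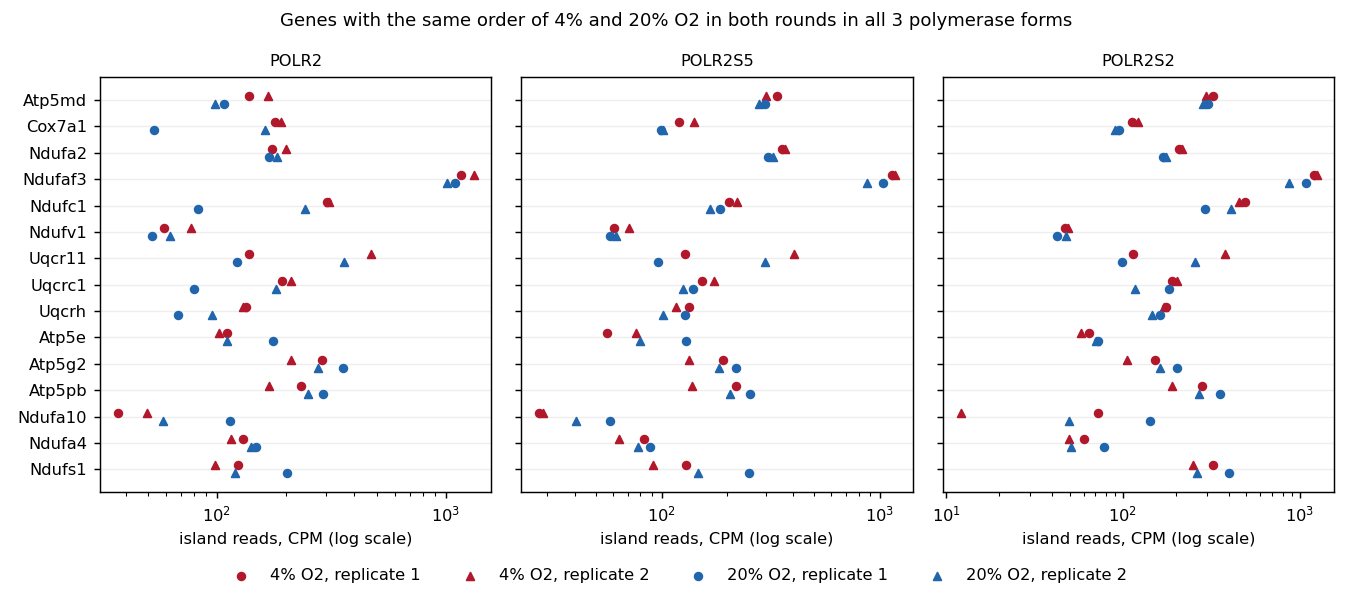
Island reads (CPM) on a log scale in each library for the 15 genes whose order of 4% and 20% O2 was the same in both rounds in all 3 polymerase forms; circles are replicate 1 and triangles replicate 2. The upper 9 genes have the 4% O2 value above the 20% O2 value of the same replicate in every panel and the lower 6 have it below, often by little.

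Island length bears on these ratios. Reads in a region grow with the length of the islands called there, and expressed per kb of island the median of all genes moved by -0.43 for POLR2, -0.21 for POLR2S5 and -0.31 for POLR2S2. Relative to that shift, the ratios of Ndufa10 and Ndufs1 in POLR2 were 0.47 and 0.24 per kb, those of Uqcrh and Ndufc1 were -0.88 and -0.14, and that of Atp5j in POLR2S2 was -0.13, each of the opposite sign to the ratio of reads. Most regions also held other genes: only 16 of 78 POLR2 regions, 11 of 89 POLR2S5 regions and 11 of 81 POLR2S2 regions held no other protein-coding gene. Within those, the median log2 ratio was -0.05, -0.07 and -0.52, beside -0.06, -0.03 and -0.04 over all such genes. In the 11 POLR2S2 regions, 1 gene was higher and 5 were lower at 4% O2 in both rounds, beside 607 and 692 of all 2008 genes of that kind.

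H3K9ac was ranked within each library, since the authors' peak scores serve only to order peaks of a list: the rank is the percentile of a region among the 39931 regions called in all 4 libraries, and each gene was represented by its highest ranked region. The 90 genes with a region had ranks at 4% O2 that differed from those at 20% O2 by a median of -2.20 percentile points, beside 0.21 over all genes, with -1.74 within round 1 and -1.59 within round 2. The sign changed when single libraries were left out: the median was 1.43 without 4% O2 replicate 1 and 0.86 without 20% O2 replicate 2. Ranks at 4% O2 exceeded both 20% O2 ranks for 8 genes, against 12.2% of all genes, and lay below both for 16, against 12.3%. With 2 libraries per level the exact two-sided permutation test cannot give a p below 0.333, so no single gene could pass.

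The largest H3K9ac differences included both isoforms described above. Cox4i2 ranked at percentiles 55.9 and 66.3 at 4% O2, against 21.3 and 3.46 at 20% O2, a difference of 48.7 points at chr2:152753687-152755583 over its start. Cox7a1 ranked at 88.6 and 38.4 at 4% O2, against 18.8 and 31.1 at 20% O2. Within round 1 the difference was 69.9 points and within round 2 it was 7.25 points, so the 4% O2 libraries were far apart. Uqcrh ranked at 76.5 and 78.9 at 4% O2, against 61.6 and 52.9 at 20% O2, and was the gene of complex III with higher ranks at 4% O2. Ndufv3, a small accessory subunit of complex I, ranked at 96.5 and 99.0 at 4% O2, against 63.8 and 89.3 at 20% O2. Ndufb2, a membrane arm subunit, completed the 5 largest without overlap with a difference of 6.06 points.

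On the other side, Ndufa12, an accessory subunit of complex I, ranked at 47.2 and 50.7 at 4% O2, against 84.4 and 79.2 at 20% O2, a difference of -32.9 points at chr10:94199034-94200564. Atp5h, subunit d of the ATP synthase stalk, ranked at 40.0 and 75.1 at 4% O2, against 86.5 and 93.1 at 20% O2. Uqcrq, a small subunit of complex III, ranked at 70.2 and 61.7 at 4% O2, against 94.8 and 98.3 at 20% O2. All 3 lay lower in both 4% O2 libraries. Ndufa13 differed by -29.2 points and Atp5e by -27.1 points, also without overlap. Ndufb7, low for POLR2, ranked at 71.6 and 63.1 at 4% O2, against 86.8 and 86.0 at 20% O2. Atp5j ranked at 61.3 and 65.5 at 4% O2, against 96.7 and 67.8 at 20% O2, below 20% O2 where its POLR2S2 reads lay above. The common isoforms Cox4i1, Cox6a1, Cox7a2, Cox8a and Ndufa4 overlapped between levels, as did Ndufa4l2 and Cox7b2, whereas Cox7b (-15.6 points) and Cox6b1 (-11.3 points) ranked lower at 4% O2. In complex II no gene was separated, with Sdhb at 90.7 and 98.7 at 4% O2, against 90.6 and 99.9 at 20% O2.

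**Figure D4:**
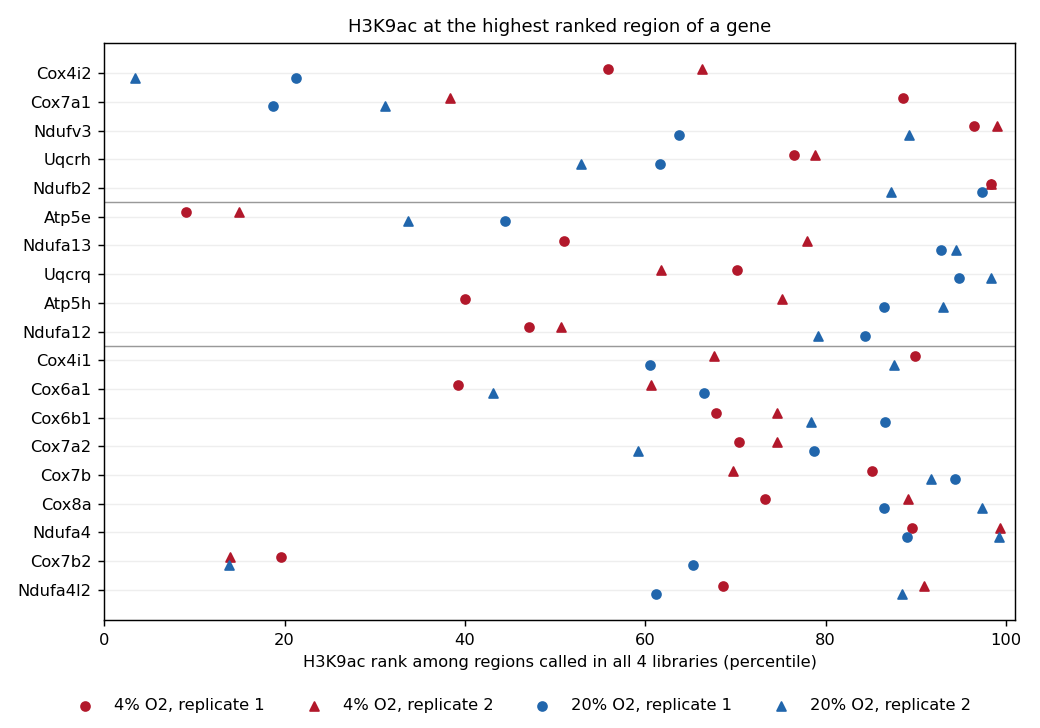
H3K9ac percentile rank in each library at the highest ranked region of a gene, for the 5 genes with the largest positive and the 5 with the largest negative difference among those without overlap, and for common and restricted isoforms of complex IV below the lower line; circles are replicate 1 and triangles replicate 2. Cox4i2 shows 55.9 and 66.3 at 4% O2, against 21.3 and 3.46 at 20% O2, and most isoforms in the lowest block overlap.

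Among the 48 genes with a CTCF region shared by all 4 libraries, the highest ranked were those of Ndufa4l2 (98.8 and 99.7 at 4% O2, against 99.5 and 99.8 at 20% O2), Atp5g2, Ndufc1, Ndufa6 and Atp5mpl. RAD21 had a shared region at 27 genes, and all 27 overlapped a shared CTCF region, as did 99.0% of those of all genes. Of the 27, 17 overlapped a shared H3K9ac region, or 63.0%, against 37.4%. The highest ranked RAD21 regions were those of Atp5d, the delta subunit of the ATP synthase, Ndufa4l2, Ndufa12, Uqcrc1 and Ndufa10.

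The median CTCF rank difference at these genes was above that of all genes, as it was for mitochondrial ribosomal protein genes (2.92 points). The median difference over 48 genes was 3.23 points, with 2.45 within round 1 and 4.10 within round 2, beside 0.97 over all genes. It was 1.62 without 20% O2 replicate 1. Ranks exceeded both 20% O2 ranks for 10 genes, against 13.7% of all genes, and lay below both for 1, Ndufaf5, against 7.65%. Ndufb7 ranked at 60.8 and 56.1 at 4% O2, against 45.2 and 43.9 at 20% O2, with a peak over its start, chr8:83566551-83567060. Uqcrh ranked at 73.3 and 54.1 at 4% O2, against 53.0 and 49.0 at 20% O2, and Ndufaf3, an assembly factor, at 95.9 and 90.6 at 4% O2, against 85.9 and 79.4 at 20% O2. These are the 3 largest differences among genes whose groups did not overlap; Ndufv2, Ndufs8 and Ndufaf6 had larger ones, between 14.2 and 16.8 points, with overlap.

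RAD21 ranks differed by a median of 10.5 points over 27 genes, beside 1.86 over all genes and 7.30 over 25 mitochondrial ribosomal protein genes. Within round 1 the median of the 27 genes was 13.3 and within round 2 it was 2.69. It was 1.04 without 20% O2 replicate 1. Ranks at 4% O2 exceeded both at 20% O2 for 7 genes, against 20.3% of all genes, and lay below both for 2, Ndufaf4 and Ndufa6, against 13.6%. Cox5a, a nuclear-encoded subunit of complex IV, ranked at 85.0 and 81.9 at 4% O2, against 48.9 and 53.1 at 20% O2, a difference of 32.4 points. Ndufab1, the mitochondrial acyl carrier protein, ranked at 48.0 and 30.5 at 4% O2, against 4.04 and 10.6 at 20% O2. Ndufv1, which binds NADH and flavin, ranked at 68.4 and 64.3 at 4% O2, against 30.5 and 43.0 at 20% O2. These 3 were taken from the genes without overlap, so both 20% O2 libraries lay below in them by that choice. The RAD21 list of 20% O2 replicate 1 held 26908 peaks, against 73328 in replicate 2.

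**Figure D5:**
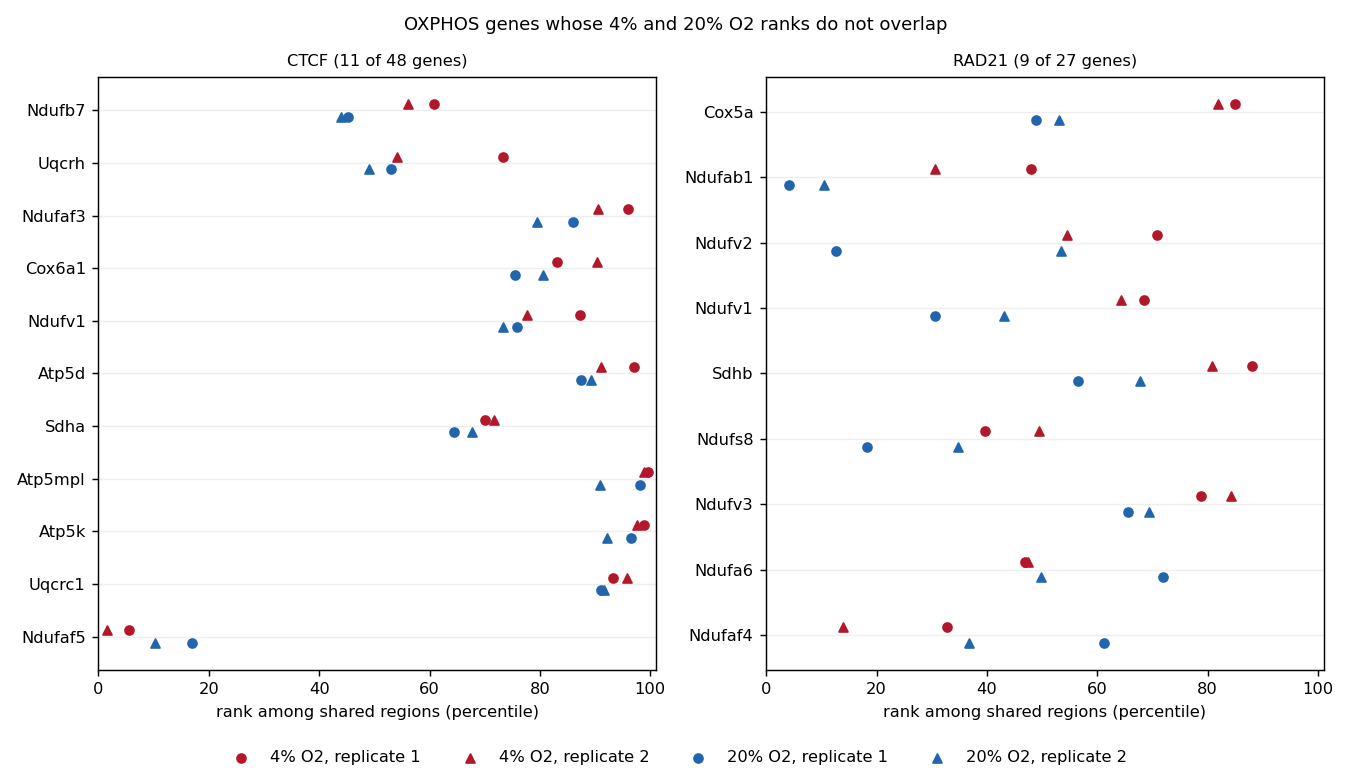
Percentile rank in each library at the highest ranked shared region of a gene for the 11 genes with CTCF ranks and the 9 with RAD21 ranks that do not overlap between O2 levels; circles are replicate 1 and triangles replicate 2. The 4% O2 points lie to the right for 10 of 11 CTCF and 7 of 9 RAD21 genes, with Cox5a at 85.0 and 81.9 at 4% O2, against 48.9 and 53.1 at 20% O2, in RAD21.

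A peak in both 4% O2 libraries and neither 20% O2 library was found at 2 genes. For CTCF it was Ndufb3, a membrane arm subunit, where all genes had 0.434%, with a peak at percentile 42.2 of the list in 4% O2 replicate 1 and at percentile 16.4 in replicate 2. For RAD21 it was Ndufb7, where all genes had 0.425%, with peaks at percentiles 23.0 and 38.4 of the 4% O2 lists. In replicate 1 the peak, chr8:83566623-83566794, lay over the start of the gene. In replicate 2 it was chr8:83566630-83566751, which ends just before the start at 83566758. Both peaks reach into the promoter printed above. No oxidative phosphorylation gene had such a peak in both 20% O2 libraries only, where all genes had 0.0366% for CTCF and 0.631% for RAD21. For H3K9ac, POLR2, POLR2S5 and POLR2S2 no gene of the 96 was called at 4% O2 alone, where all genes had 0.0503%, 0.27%, 0.16% and 1.49%. None was called at 20% O2 alone, where all genes had 0.219%, 0.16%, 0.251% and 0.178%.

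Other genes of the pathway outside the naming rule were compared by the same measures. A list of 40 assembly factors and electron carriers, such as Cycs, Surf1 and Bcs1l, had median log2 ratios of -0.01 for POLR2, -0.09 for POLR2S5 and -0.14 for POLR2S2. In POLR2S5, 3 of its 40 genes were higher and 16 lower at 4% O2 in both rounds, against 31.0% and 27.2% of all genes. The 14 regulators of respiratory genes had medians of 0.03, -0.07 and 0.05, and the 78 mitochondrial ribosomal protein genes 0.00, -0.05 and -0.02. By contrast the 9 genes of lower glycolysis, among them Ldha and Pgk1, had medians of 0.28, 0.36 and 0.50, and 8 of the 9 exceeded both 20% O2 libraries in POLR2S2. None of these lists was given a test of its own. For H3K9ac the median rank difference was -3.29 points for assembly factors and carriers, 4.39 for regulators, -2.55 for mitochondrial ribosomal protein genes and 1.58 for lower glycolysis. For CTCF it was 1.80, 1.28, 2.92 and 3.78 points for these lists in that order. For RAD21, with 18, 6, 25 and 5 genes in turn, it was 1.84, 10.8, 7.30 and -5.61 points.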

How the data were processed

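Reads had been aligned with BWA and handled with Picard against mm10, and SICER and MACS2 are named as peak callers, per the submitters' processing notes, with versions not given in the sources used. Per the file headers, polymerase islands came from SICER and CTCF, RAD21 and H3K9ac peaks from MACS2, 1 list per library. Judged from their values, the deposited SICER lists hold the read count of each island, and the deposited MACS2 lists hold a -log10 q-value, used here only to rank peaks within a list. Replicate 2 of each antibody and level was deposited also under a second name with equal scores and was counted once. Reads in islands are not library depth, which is not given; arms of 2 libraries limit the precision of every value. The lists were used without further filtering.

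For each antibody, intervals overlapping by 1 bp were merged across its 4 lists, and regions called in all 4 were kept. Island counts were tested with edgeR 4.0.16 (R 4.3.3; TMM, quasi-likelihood, Benjamini-Hochberg over all regions, threshold 0.05), with DESeq2 1.42.0 as an alternative; tables and figures used Python 3.11.15, pandas 2.3.3, numpy 2.4.6 and matplotlib 3.10.9. The scripts were tested on simulated data. Other alternatives were another scaling, regions called in at least 2 libraries, reads per kb, other gene windows and thresholds, other rankings, and leaving out each library. Same-numbered libraries deviated together (correlation over regions 0.53, 0.55 and 0.39 for POLR2, POLR2S5 and POLR2S2); the number marks a shared sequencing round, per the file headers, so the round was also fitted as a block.

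The genes and lists were chosen with earlier results of these data known. Named are the 5 highest and 5 lowest log2 ratios per polymerase form with the same sign in both rounds, the 5 largest H3K9ac rank differences in each direction without overlap, genes called at 1 O2 level only, genes without H3K9ac, isoform pairs, complex II, genes past the threshold, and the 5 highest ranked CTCF and RAD21 genes; others named were chosen after their values were seen. Gene positions and promoters are from RefSeq tables of mm10, and 18 genes had no promoter entry. No genome was used.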

Additional observations from a re-analysis of the deposited data

How the results depend on the processing

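Of the recomputed values of single genes, 485 kept their direction and their side of the threshold, 26 changed sign and 2 (Cox7a1 and Ndufc1) passed the threshold, Uqcrq not being among the genes followed for POLR2; of the group summaries, 113 stayed close and 16 moved. Leaving out each library in turn gave median log2 ratios between -0.075 and 0.107 for POLR2, between -0.04 and 0.07 for POLR2S5 and between -0.02 and 0.12 for POLR2S2, and median rank differences between -5.15 and 1.43 points for H3K9ac, between 1.62 and 4.29 for CTCF and between 1.04 and 14.6 for RAD21. Without 20% O2 replicate 2, which leaves the shallow library alone at that level and assumes that it varies like the others, edgeR called 195 POLR2 regions, 178 of them higher at 4% O2, and 3 of these genes: Ndufc1 (log2 ratio 1.90 ± 0.38, adjusted p 0.0208), Uqcrq (1.63 ± 0.33, adjusted p 0.0208) and Cox7a1 (1.81 ± 0.41, adjusted p 0.0375). In 20% O2 replicate 1 no POLR2 island lay within 1 kb of Uqcrq itself. With the same library left out, edgeR called 50 POLR2S5 and 0 POLR2S2 regions (1052 for POLR2S2 at an unadjusted p under 0.05), with 0 of these genes. The replicate block changed no call of these genes; the RAD21 median was 2.69 within round 2.

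With the centre of an island required inside the window, the genes called in all 4 libraries numbered 38 for POLR2, 38 for POLR2S5 and 22 for POLR2S2, and with the upper 50% of each list 46 for POLR2. Flanks of 5 kb gave 45 genes for RAD21. The shares of all genes at these settings are not given here, so these counts do not set the genes apart from others. The CTCF peak at Ndufb3 was no longer specific to 4% O2 (0 genes) with flanks of 5 kb or the upper 50% of each list, nor was the RAD21 peak at Ndufb7 (0 genes) without flanks or with the upper 50%; without flanks, and with 5 kb, 1 gene had RAD21 at 20% O2 only.

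Signs that changed were these. Per kb of island and relative to all genes, POLR2 gave 0.47 for Ndufa10, 0.51 for Ndufa13, 0.59 for Ndufa9, 0.24 for Ndufs1, -0.88 for Uqcrh and -0.14 for Ndufc1. POLR2S5 gave 0.38 for Ndufs1, 0.34 for Cox4i2, -0.037 for Uqcr11, -0.082 for Ndufa8, -0.53 for Atp5j and -0.11 for Ndufa4l2, and POLR2S2 gave 0.045 for Atp5g2, -0.030 for Ndufa8, -0.047 for Ndufa4l2, -0.069 for Ndufv2 and -0.13 for Atp5j. In POLR2S5 all values of Cox4i2 in this paragraph are those of the region representing it, which lies mostly over Bcl2l1. They are not those of the region over its start and body. Without 4% O2 replicate 2, POLR2S5 gave 0.02 for Cox4i2, -0.62 for Uqcr11 and -0.13 for Ndufa4l2, and POLR2S2 gave -0.018 for Ndufa4l2. Without 20% O2 replicate 1, POLR2S5 gave 0.10 for Cox4i2 and -0.15 for Uqcr11, and POLR2S2 gave 0.12 for Cox7c. Over single omissions POLR2S5 ranged between -2.32 and 0.10 for Cox4i2, between -0.62 and 1.504 for Uqcr11 and between -0.13 and 1.89 for Ndufa4l2, and POLR2S2 between -0.018 and 1.95 for Ndufa4l2 and between -1.17 and 0.125 for Cox7c. The mean over all H3K9ac regions of Ndufv3 gave -1.76 points, and flanks of 5 kb gave -0.27 points for RAD21 at Sdhb. Reads per kb follow from island length by construction; for the other changes the cause was not tested. With 2 libraries per level, differences well above the standard errors given did not pass the test, as at Atp5j for POLR2S2 and Ndufa10 for POLR2. Differences near or below those errors were thus not detectable. Calls also depend on depth, which is not given.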
